A study of Homo sapiens with 12 samples.

Results

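The genes described here are those of the epidermal differentiation complex and its neighbours whose symbols are S100A, SPRR or LCE followed by their number, together with IVL, FLG, CRNN, RPTN and TCHH. They were chosen by symbol alone, and 50 of the 39368 symbols in each count table met that rule, with 15 S100A, 12 SPRR and 18 LCE genes and 5 other envelope precursors. SPRR2C, a pseudogene, is among the SPRR genes. All 50 lie on chromosome 1, between bases 151982915 and 153632039 of GRCh38 in the GENCODE v44 annotation, a span of 1.65 Mb. After a filter on low counts, 23 could be tested in CAL27 and 19 in HSC3 cells, with no LCE gene among them.

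Keratinocytes that leave the basal layer of a squamous epithelium replace the plasma membrane with a cornified envelope. Involucrin (IVL) and the small proline-rich proteins (SPRR) are cross-linked into it by transglutaminases, late cornified envelope (LCE) proteins are added afterwards, and the proteins made from FLG, TCHH, RPTN and CRNN combine S100-like calcium-binding ends with long repeats. The S100A proteins are small calcium-binding proteins that act on annexins, the cytoskeleton and, when released, on receptors of inflammation, and several are made at high levels in squamous carcinoma. CAL27 and HSC3 are established cell lines from HPV-negative head and neck squamous cell carcinoma (HNSCC).

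RNA-seq counts were obtained from HSC3/tet-MUC1shRNA cells and CAL27/tet-MUC1shRNA cells, which carry a puromycin-selected lentiviral vector that expresses an shRNA against MUC1 when doxycycline (DOX) is present. Each line was treated for 7 days with vehicle (0.10% DMSO) or with 500 ng/ml DOX, with 3 libraries in each of the 4 groups, and the comparison asks how these genes respond when MUC1 is silenced. CAL27 cells were grown in DMEM and HSC3 cells in MEM. DOX-treated cells with a control shRNA were not analysed here, so effects of DOX itself and of MUC1 silencing cannot be told apart. The labels speak of triplicate cultures without saying whether they were grown separately, so p-values measure the spread between these libraries, which may be technical. In the CAL27 table the DOX columns are numbered 4 to 6, and these numbers name the libraries below.

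Levels are given as CPM, the counts of a gene for each 1e+06 counts of its library after the library totals were multiplied by TMM factors, which put all 12 libraries on 1 scale. A change was called where edgeR's quasi-likelihood test gave a p under 0.05 after Benjamini-Hochberg adjustment across every tested gene. With 3 libraries against 3, an exact permutation test could not go below p = 0.1. Totals were 92866845 to 126328662 counts in CAL27 and 89730914 to 169065103 in HSC3 libraries. MUC1 fell in both lines, from 53.1 to 58.4 CPM with vehicle to 2.76 to 3.25 CPM with DOX in CAL27 cells and from 1.64 to 1.97 to 0.132 to 0.310 CPM in HSC3 cells. Counts per original molecule were estimated at 2.45 to 3.33 in CAL27, 4.18 to 7.43 in HSC3 vehicle and 8.93 to 17.2 in HSC3 DOX libraries. Low counts thus stand for fewer molecules than their size. They were also mostly even, with 32.2% to 35.7% odd in CAL27 and 22.1% to 25.7% odd in HSC3 libraries, and the cause was not tested. Among genes expected to have low counts, 28% to 51.9% were at 0 in an HSC3 DOX library. A zero with DOX in HSC3 cells therefore does not show that a gene was not expressed. HSC3 DOX library 1 stood apart. Libraries were compared by chi-square per degree of freedom, a variance relative to sampling noise that also rises where several counts share a molecule. It was 141 and 90.9 for library 1 against libraries 2 and 3, and 23.2 between these. Library 1 also had 17.2 counts per molecule. Without it the same 4 members were called lower and the same 2 higher in HSC3 cells. CAL27 DOX library 6 had a chi-square per degree of freedom of 31.4 and 29.5 against libraries 4 and 5, where these gave 9.34 between them. Without it the same members and 3 others were called in CAL27 cells, with 6 lower and 4 higher (S100A8 lower, S100A10 and S100A13 higher). Of 8 squamous epithelium markers, none was at 0 in any group. Their summed level fell from 7361 to 7672 CPM to 3528 to 3681 CPM in CAL27 cells and from 7182 to 7890 to 3776 to 4239 CPM in HSC3 cells with DOX, with 7 and 6 of the 8 called lower, and the part of this in the members' changes was not tested. In bulk RNA, fewer cells of a type and less RNA per cell cannot be told apart.

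The promoters of the complex are shown first, for members with and without a called response to DOX. Promoters of 300 bases, from 250 before to 50 after each start, were available from RefSeq on GRCh38.p14 for 46 of the 50 members (54 promoters) and for 35116 promoters in all. The 7-letter motif TGANTCA, bound by the FOS and JUN dimers of AP-1, was searched on both strands. It was present in 27.8% of the members' promoters (15 of 54) and in 7.71% of all promoters. By gene, it was found in 5 of 5 of the other precursors, 6 of 9 SPRR genes, 4 of 15 S100A genes and 0 of 17 LCE genes, against 9.37% of all genes. AP-1 has long been studied at the IVL and SPRR promoters. Of the members called with DOX when each line was fitted alone, S100A2, S100A3 and SPRR1B had a match. S100A4, S100A6, S100A9, S100A11, S100A14 and S100A16 had none. The share with a match among these called members was near that of all members by gene (15 of 46, 32.6%). A match describes the letters and does not show that the site is used. The windows that follow are 47 bases each, 5′ to 3′ on the strand of the gene, with the motif in capitals, and show the envelope precursors and the SPRR and S100A genes whose response to DOX is described.
IVL: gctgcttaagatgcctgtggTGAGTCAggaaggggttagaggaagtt
FLG: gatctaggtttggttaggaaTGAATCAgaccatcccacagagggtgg
TCHH: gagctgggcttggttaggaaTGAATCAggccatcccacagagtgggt
RPTN: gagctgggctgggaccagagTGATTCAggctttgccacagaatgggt
CRNN: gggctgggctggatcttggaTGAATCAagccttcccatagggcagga
SPRR1A: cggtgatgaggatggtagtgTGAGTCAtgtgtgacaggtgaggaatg
SPRR2A: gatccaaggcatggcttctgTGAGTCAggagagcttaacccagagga
SPRR3: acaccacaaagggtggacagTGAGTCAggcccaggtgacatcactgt
S100A3: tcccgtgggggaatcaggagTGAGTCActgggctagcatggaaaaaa

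Counted from the start site, the motif began at base -123 in IVL, -79 in FLG, -99 in TCHH, -95 in RPTN and -93 in CRNN. The windows of FLG and TCHH had 40 of 47 bases in common (85.1%), and those of RPTN and TCHH 36 (76.6%). The other pairs among FLG, TCHH, RPTN and CRNN had 59.6% to 70.2% in common. All windows were placed on the motif, so its shared letters were fixed by that choice. SPRR1B had 2 matches, at -141 and -111, and 1 of the promoters of S100A2 had 1, at -52. For SPRR1B, the 250 bases before the start lie on the plus strand at chr1:153030953-153031202, and for S100A2 on the minus strand at chr1:153565845-153566094. Both genes fell with DOX in HSC3 cells, and a link of the motif to the response was not tested. Their sequences are given with the AP-1 motif in capitals.
SPRR1B: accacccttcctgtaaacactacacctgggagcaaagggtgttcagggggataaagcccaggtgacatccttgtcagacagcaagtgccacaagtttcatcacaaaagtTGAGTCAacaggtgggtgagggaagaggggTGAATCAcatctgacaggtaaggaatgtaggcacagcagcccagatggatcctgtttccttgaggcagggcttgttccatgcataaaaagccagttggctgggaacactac
S100A2: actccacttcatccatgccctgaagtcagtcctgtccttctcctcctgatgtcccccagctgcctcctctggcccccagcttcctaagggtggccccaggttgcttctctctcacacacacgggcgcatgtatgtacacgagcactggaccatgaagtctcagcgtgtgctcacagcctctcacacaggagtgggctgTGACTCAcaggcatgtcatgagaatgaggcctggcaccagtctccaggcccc

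With DOX, S100A genes moved in both directions in both lines, and most members were not called. In CAL27 cells, 5 members fell (S100A2, S100A4, S100A9, S100A11 and S100A14) and 2 rose (S100A6 and S100A16), or 7 of the 23 tested, where 44.5% of all tested genes were called. In HSC3 cells, 4 fell (S100A2, S100A3, S100A14 and SPRR1B) and the same 2 rose, or 6 of 19, where 28.4% of all tested genes were called. In CAL27 cells 21.8% of all tested genes were called lower and 22.6% higher, and in HSC3 cells 15.4% lower and 13% higher. The median log2 fold change of the tested members was -0.02 in CAL27 and -0.19 in HSC3 cells, against -0.01 for all tested genes in each line. With a fold change above 2 as well, S100A9 alone was called in CAL27 cells (6.42% of all genes) and SPRR1B alone in HSC3 cells (5.98%). The response differed between the lines for 6 of 25 members tested (S100A2, S100A9, S100A14, SPRR1B, SPRR2A and SPRR2D), where it differed for 20.6% of all tested genes. S100A9 and SPRR1B differed by more than 2-fold, where this held for 5.21% of all genes. SPRR2A and SPRR2D passed that threshold as well, but only against 0 counts in the HSC3 DOX libraries. Neither was tested in HSC3 cells alone, and both passed the filter through their CAL27 counts, so no excess of members is read from them. All DOX libraries lay outside the range of the vehicle libraries for 10 members in CAL27 and 8 in HSC3 cells, where this held for 51.79% and 42.61% of all tested genes. The shares of members called at an adjusted p under 0.05 alone, within a line or for the difference between the lines, were near or below those of all genes.

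**Figure D1:**
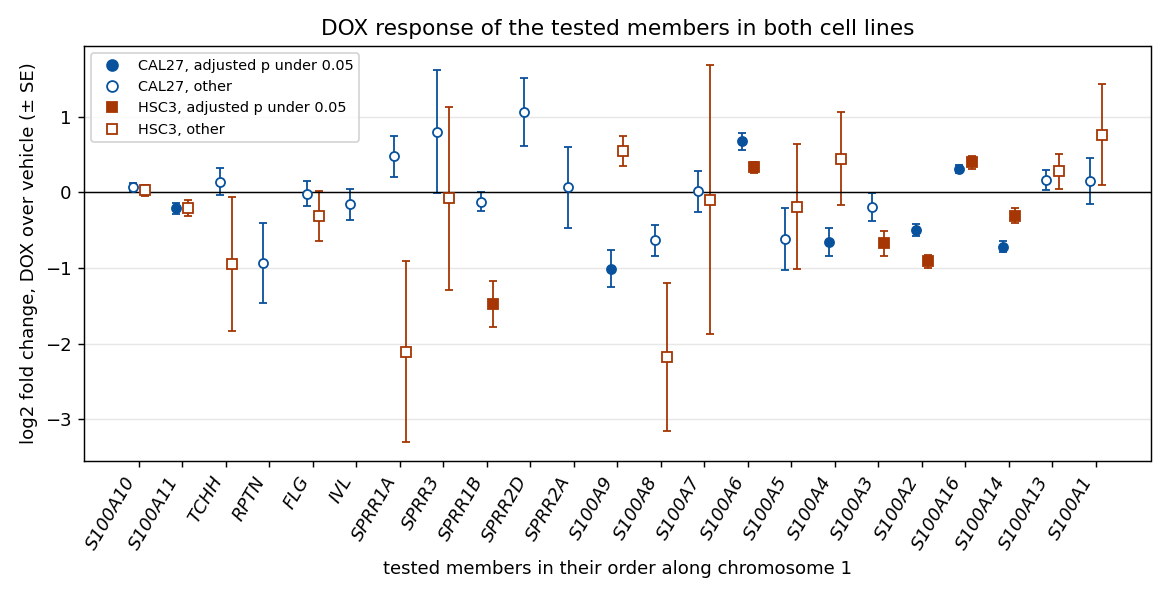
Log2 fold change of DOX over vehicle (vertical axis, ± SE) for the members tested in CAL27 cells (blue circles) and HSC3 cells (brown squares), in their order along chromosome 1, with filled symbols at an adjusted p under 0.05. S100A6 and S100A16 lie above 0 and S100A2 and S100A14 below 0 in both lines, and S100A9 is at -1.01 in CAL27 and 0.55 in HSC3 cells.

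S100A2, a calcium-binding protein of basal keratinocytes and a known p63 target, was among the most abundant members and fell in both lines. In CAL27 cells its level was 140.3, 147 and 151 CPM with vehicle and 107, 113 and 89.8 CPM with DOX. In HSC3 cells it was 204, 216 and 199 CPM with vehicle and 94.1, 117 and 118 CPM with DOX. Every DOX library was below every vehicle library of its line. The log2 fold change was -0.50 ± 0.0808 (SE; adjusted p = 0.00109 by edgeR) in CAL27 and -0.91 ± 0.0898 (adjusted p = 2.71e-05 by edgeR) in HSC3 cells. These calls held under every alternative except where a change above 2-fold was also required. The fall was larger in HSC3 cells by 0.41 on the log2 scale (95% interval -0.66 to -0.17; adjusted p = 0.0293 for the interaction by edgeR), and this difference was not called without 1 of 7 libraries (adjusted p = 0.0517 to 0.106). Those were CAL27 vehicle 1, 2 and 3, CAL27 DOX 4 and 5 and HSC3 vehicle 1 and 2. It was not called without the filter on low counts either (adjusted p = 0.0677 by edgeR).

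S100A14 and S100A16 are neighbours on the minus strand, 1109 bases apart, and moved in opposite directions in both lines. S100A14, a membrane-associated S100 protein of epithelia, was at 21.96, 20.5 and 19.96 CPM with vehicle and at 13.8, 13.3 and 10.97 CPM with DOX in CAL27 cells. The HSC3 libraries had 32.2, 33.5 and 31.3 CPM with vehicle and 22.8, 27.2 and 28.5 CPM with DOX. The DOX libraries were lower throughout, with a log2 fold change of -0.72 ± 0.0750 (adjusted p = 2.09e-07 by edgeR) in CAL27 and -0.31 ± 0.100 (adjusted p = 0.0407 by edgeR) in HSC3 cells. The HSC3 call was lost without vehicle library 1 (adjusted p = 0.121), 2 (0.149) or 3 (0.0956) or DOX library 2 (0.0550), by edgeR. The fall was smaller in HSC3 cells by 0.41 (95% interval 0.14 to 0.68; adjusted p = 0.0464 by edgeR). That difference was lost without any 1 of 10 libraries (adjusted p = 0.0502 to 0.101) and with library totals (0.0614), and held without CAL27 DOX 4 and without HSC3 DOX 1.

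S100A16, which is expressed in most epithelia, was at 61.9, 62.3 and 61.6 CPM with vehicle and at 81.3, 80.3 and 68.6 CPM with DOX in CAL27 cells. HSC3 libraries had 74.7, 82.9 and 74.6 CPM with vehicle and 89.9, 109.8 and 106 CPM with DOX. All DOX libraries were above the vehicle libraries of their line, and the log2 fold change was 0.31 ± 0.0531 (adjusted p = 0.000119 by edgeR) and 0.39 ± 0.0878 (adjusted p = 0.00611 by edgeR). S100A6 (calcyclin), which binds annexins and CACYBP, rose as well. Its level was 70.8, 75.2 and 75.0 CPM with vehicle and 128, 127 and 98.2 CPM with DOX in CAL27 cells, and 134, 147 and 131 CPM and then 162, 177 and 179 CPM in HSC3 cells. The log2 fold change was 0.67 ± 0.111 (adjusted p = 0.00389 by edgeR) in CAL27 and 0.33 ± 0.0688 (adjusted p = 0.00438 by edgeR) in HSC3 cells. These S100A16 and S100A6 calls held under every alternative except where a change above 2-fold was also required. For S100A6 the difference between the lines was -0.35 (adjusted p = 0.0560 by edgeR) and was not called. It passed the test with DESeq2 (adjusted p = 0.0432), with counts divided by counts per molecule (0.0286) and, at -0.44, without CAL27 DOX library 6 (0.00263 by edgeR).

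S100A8 and S100A9 form calprotectin, which binds calcium, zinc and manganese and is induced in stressed keratinocytes. Of the members with counts in every library and a called difference in response, S100A9 differed most between the lines. In CAL27 cells it was at 54.9, 50.2 and 56.4 CPM with vehicle and at 35.7, 25.6 and 19.4 CPM with DOX, a log2 fold change of -1.01 ± 0.245 (adjusted p = 0.0306 by edgeR). In HSC3 cells it was at 1.91, 1.97 and 1.57 CPM with vehicle and at 2.63, 2.88 and 2.46 CPM with DOX, a log2 fold change of 0.55 ± 0.204 (adjusted p = 0.0709 by edgeR). All DOX libraries were lower in CAL27 and higher in HSC3 cells, although the HSC3 value did not pass the test. The HSC3 value passed it with DESeq2 (adjusted p = 0.0497), with counts divided by counts per molecule (adjusted p = 0.04998 by edgeR) and when all 12 libraries were fitted together (adjusted p = 0.0342 by edgeR). The difference between the responses was 1.56 (95% interval 1.07 to 2.04; adjusted p = 0.000326 by edgeR) and held under every alternative. The CAL27 call was lost without vehicle library 1 (adjusted p = 0.0856), 2 (0.0665) or 3 (0.0853) or DOX library 5 (0.107), by edgeR, at log2 fold changes of -1.07 to -0.98.

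S100A8 was at 14, 10.8 and 13.5 CPM with vehicle and at 10.2, 8.496 and 6.13 CPM with DOX in CAL27 cells, with no overlap. The log2 fold change was -0.64 ± 0.203 with an adjusted p of 0.0502 by edgeR. It passed the test without vehicle library 2 (adjusted p = 0.0154), DOX library 4 (0.00462) or DOX library 6 (0.000991), by edgeR, and under 5 other alternatives. The HSC3 vehicle libraries had 56, 76 and 76 counts of S100A8 and the DOX libraries 18, 44 and 0, lower throughout, at a log2 fold change of -2.17 ± 0.978 (adjusted p = 0.131 by edgeR), and without DOX library 2 it was -3.44 (adjusted p = 0.0375). Per exon length, the ratio of S100A9 to S100A8 was 6.10 to 7.21 in the CAL27 vehicle and 4.68 to 5.44 in the CAL27 DOX libraries. Length was all annotated exon bases of a gene, 891 for S100A8 and 573 for S100A9. Where the transcripts made are shorter than this, the size of the ratio shifts. The ratio in HSC3 cells was 3.32 to 6.11 with vehicle. With DOX it was 33.7 in library 1 (18 S100A8 counts at 17.2 counts per molecule) and 13.7 in library 2 (44 at 8.93). Library 3 had no S100A8 count, so the HSC3 DOX ratios rest on few molecules, and no change in the ratio was tested. The S100A8 difference between the lines was not called (adjusted p = 0.119 by edgeR) and passed the test without HSC3 DOX library 2 (0.00722). S100A12, the third of these genes that myeloid cells also make, had at most 24 counts in any library.

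Summed over 7 myeloid marker genes the level was 6.99 to 7.84 CPM with vehicle and 5.93 to 8.21 CPM with DOX in CAL27 cells, and 2.44 to 3.14 and then 0.337 to 2.26 CPM in HSC3 cells. LYZ was at 0 in HSC3 cells. ITGAM was called lower in both lines (log2 fold change -0.94 and -2.11) and CSF1R higher in CAL27 cells (0.73), and their part in the calprotectin genes was not tested.

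**Figure D2:**
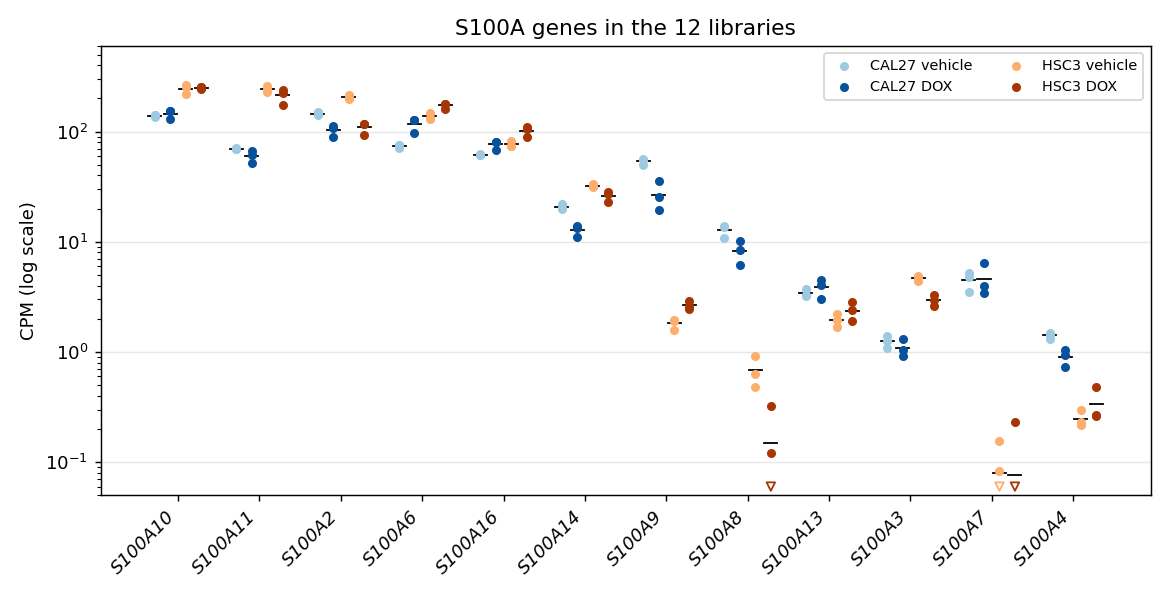
Level in CPM (vertical axis, log scale) of 12 S100A genes in each of the 12 libraries, with 1 point a library, a bar at the mean of each group and open triangles at the lower edge for libraries with no count. S100A7, S100A8 and S100A9 are far lower in HSC3 (brown) than in CAL27 cells (blue), and S100A9 falls with DOX in CAL27 cells and not in HSC3 cells.

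S100A10 and S100A11 are partners of the annexins ANXA2 and ANXA1. S100A10 was at 136, 141 and 140.4 CPM with vehicle and at 153, 152 and 132 CPM with DOX in CAL27 cells, and at 219, 254 and 263 and then 255, 245 and 252 CPM in HSC3 cells. The groups overlapped in both lines, and the 95% interval of the log2 fold change was -0.03 to 0.16 in CAL27 and -0.11 to 0.17 in HSC3 cells. Without CAL27 DOX library 6 the CAL27 value was 0.14 and passed the test (adjusted p = 0.0021 by edgeR). S100A11 was at 69.7, 69.5 and 70.4 CPM with vehicle and at 67.3, 61.8 and 52.2 CPM with DOX in CAL27 cells. It fell by 0.21 on the log2 scale (SE 0.0736; adjusted p = 0.0375 by edgeR), and the call was lost without vehicle library 1 (0.0587) or 3 (0.0629) or DOX library 5 (0.0659) or with all 12 libraries in 1 fit (0.185). In HSC3 cells S100A11 was at 246, 260.5 and 229.8 CPM with vehicle and at 174, 240.1 and 226 CPM with DOX. These groups overlapped, at a log2 fold change of -0.21 (adjusted p = 0.2002 by edgeR).

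S100A3 and S100A4 overlap each other on the minus strand without shared exons. S100A3, known from the hair cuticle, was at 4.83, 4.89 and 4.39 CPM with vehicle and at 2.94, 2.64 and 3.27 CPM with DOX in HSC3 cells, a log2 fold change of -0.68 ± 0.163 (adjusted p = 0.00963 by edgeR). That call was lost without vehicle library 2 (adjusted p = 0.0504). In CAL27 cells its log2 fold change was -0.20 (adjusted p = 0.442 by edgeR), and the difference between the lines was not called (adjusted p = 0.21). S100A4, a motility-associated protein, was at 1.43, 1.32 and 1.501 CPM with vehicle and at 0.937, 1.04 and 0.738 CPM with DOX in CAL27 cells. It fell by 0.66 on the log2 scale (SE 0.183; adjusted p = 0.00583 by edgeR), which was lost when all 12 libraries were fitted together (adjusted p = 0.154). In HSC3 cells S100A4 was below 0.5 CPM in every library, at 0.44 ± 0.617.

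The remaining S100A genes were not called with DOX in either line. S100A7 (psoriasin), an antimicrobial protein of inflamed skin, had CAL27 means of 4.50 ± 0.871 CPM with vehicle and 4.57 ± 1.58 CPM (SD, n = 3) with DOX and at most 28 counts in an HSC3 library. S100A13, a copper-binding protein, was at 3.43 ± 0.246 and 3.86 ± 0.766 CPM in CAL27 cells and averaged 2.38 ± 0.476 CPM with DOX in HSC3 cells. Its CAL27 log2 fold change was 0.16, and without DOX library 6 it was 0.32 and passed the test (adjusted p = 0.0183 by edgeR). S100A1 and S100A5 were below 1 CPM in every library. Of the exon bases of S100A13, 24.2% are shared with a readthrough gene and 10.6% lie opposite S100A1, and S100A7 shares 15.8% of its 50-base windows with S100A7A, so their counts are uncertain.

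SPRR1B was the SPRR gene with the most counts, and the only SPRR gene called with DOX when each line was fitted alone. In HSC3 cells it was at 2.14, 2.14 and 2.50 CPM with vehicle and at 0.863, 1.07 and 0.496 CPM with DOX, and the groups did not overlap. It fell by 1.48 on the log2 scale (SE 0.304; adjusted p = 0.00374 by edgeR), a fold of 2.79. In CAL27 cells it was at 4.42, 3.20 and 3.57 CPM with vehicle and at 3.79, 3.02 and 3.49 CPM with DOX, which overlapped, at -0.13 (95% interval -0.37 to 0.12). The difference between the lines was -1.35 (95% interval -1.99 to -0.72; adjusted p = 0.0073 by edgeR). Both the HSC3 fall and the difference held under every alternative.

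The other SPRR genes were near the limit of detection. SPRR1A, the closest relative of SPRR1B, had 99, 36 and 60 counts in the CAL27 vehicle and 76, 62 and 108 in the CAL27 DOX libraries. In HSC3 cells SPRR1A had 52, 9 and 30 counts and then 18, 0 and 8, and the overlapping groups gave a log2 fold change of -2.11 ± 1.19 (adjusted p = 0.233 by edgeR). The difference between the lines was -2.58 for SPRR1A (adjusted p = 0.0941 by edgeR), which passed the test with DESeq2 (0.0391) and without HSC3 DOX library 1 (0.0103 by edgeR). SPRR2D had 22, 8 and 12 counts in the CAL27 vehicle and 31, 20 and 28 in the CAL27 DOX libraries. It had 8, 8 and 16 counts and then 0, 0 and 0 in HSC3 cells. DOX libraries were thus above vehicle in CAL27 cells (adjusted p = 0.0652 by edgeR) and at 0 in HSC3 cells, and the responses differed between the lines (adjusted p = 0.00199 by edgeR for the interaction). That call was kept under every alternative in which the gene was tested, and with counts divided by counts per molecule it did not pass the filter on low counts. The CAL27 rise passed the test without vehicle library 1 alone (adjusted p = 0.0490).

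SPRR2A had 30, 4 and 24 counts and then 23, 12 and 19 in CAL27 cells, and 14, 10 and 0 and then 0, 0 and 0 in HSC3 cells. Its interaction (adjusted p = 0.0498 by edgeR) was lost without any 1 of 11 libraries (adjusted p = 0.0511 to 0.0978) and with library totals (0.0505), and held without HSC3 vehicle 3. With counts divided by counts per molecule SPRR2A did not pass the filter on low counts. No size is given for either gene, since no HSC3 DOX library had a count. Among genes expected to have 8 to 16 counts, 28.0% to 51.9% were at 0 in an HSC3 DOX library and 7.33% to 22.2% in an HSC3 vehicle library, and the part of this in the zeros was not tested. SPRR2A and SPRR2D also share 34.4% and 19.4% of their 50-base windows with other genes, so reads may be split among the SPRR2 genes. SPRR3 ranged from 0 to 50 counts with overlapping groups in both lines, SPRR2E had no count in HSC3 cells and SPRR2B had none in any library. Summed over the 12 SPRR genes, the level was 4.75 ± 1.05 and 4.81 ± 0.705 CPM (SD, n = 3) with vehicle and DOX in CAL27 cells and 2.96 ± 0.145 and 1.03 ± 0.315 CPM in HSC3 cells. All HSC3 DOX sums (0.694 to 1.32 CPM) were below the HSC3 vehicle sums (2.81 to 3.10 CPM).

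**Figure D3:**
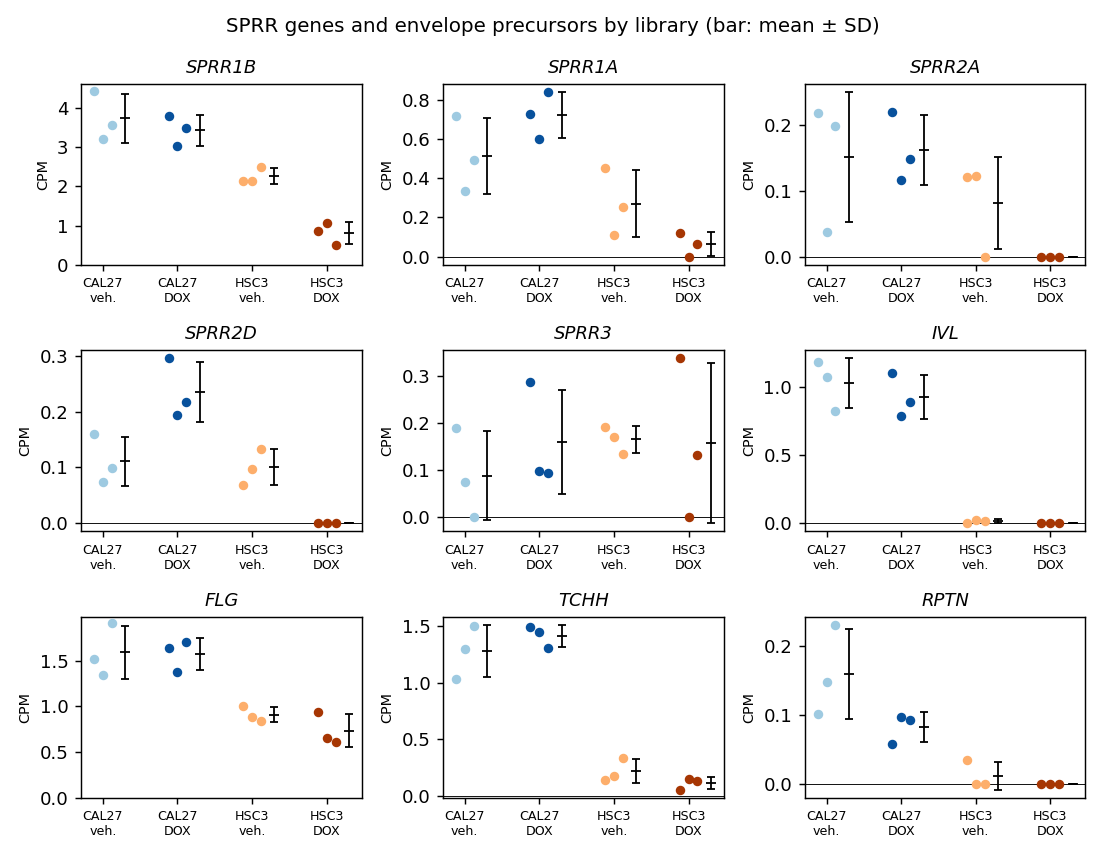
Level in CPM (vertical axes, each including 0) of 5 SPRR genes and 4 envelope precursors in each library of the 4 groups, with black bars for the mean ± SD. SPRR1B falls with DOX in HSC3 cells, SPRR2A and SPRR2D are at 0 in all 3 HSC3 DOX libraries, and IVL and TCHH are far lower in HSC3 than in CAL27 cells.

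None of the 5 other envelope precursors was called with DOX, where 4 were tested in CAL27 and 2 in HSC3 cells. Without adjustment, none of these values had a p under 0.05 by edgeR either. IVL, the envelope scaffold, had 163, 116 and 100 counts in the CAL27 vehicle and 115, 81 and 114 in the CAL27 DOX libraries, which overlapped (95% interval of the log2 fold change -0.56 to 0.24). HSC3 libraries had 0, 2 and 2 counts with vehicle and none with DOX. FLG, the precursor of filaggrin, which bundles keratin filaments, was at 1.59 ± 0.290 and 1.57 ± 0.174 CPM in CAL27 and 0.910 ± 0.0862 and 0.736 ± 0.181 CPM in HSC3 cells (SD, n = 3), and 12.4% of its exon bases lie opposite FLG-AS1. TCHH, trichohyalin of the inner root sheath, was at 1.28 ± 0.233 and 1.41 ± 0.0972 CPM in CAL27 and 0.215 ± 0.105 and 0.112 ± 0.0505 CPM in HSC3 cells. RPTN had 14, 16 and 28 counts in the CAL27 vehicle and 6, 10 and 12 in the CAL27 DOX libraries, lower throughout (adjusted p = 0.166 by edgeR), and CRNN had 4 counts in all 12 libraries together.

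The LCE genes, which mark the last stage of cornification, were at or near 0. Of the 18, 9 had no count in any library (LCE1A, LCE2A, LCE2B, LCE2C, LCE2D, LCE3B, LCE3C, LCE4A and LCE6A). The others had 102 counts together, in 26 of 216 library values, and the highest was 12 counts of LCE1E in HSC3 DOX library 2. At these counts no response to DOX could be detected or measured. The LCE genes and CRNN did not bear out the name of epidermal differentiation in these cells, in which S100A genes made up nearly all counts of the set (1060376 counts, against 4768 for SPRR and 3552 for the other precursors).

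With vehicle, the lines differed in most members. Of 25 members tested over all 12 libraries, 18 differed between vehicle-treated HSC3 and CAL27 cells, 7 higher and 11 lower in HSC3 cells, where 62.9% of all tested genes differed (30.6% higher and 32.3% lower). The difference was above 2-fold for 10 of them, against 31.9% of all genes. IVL, RPTN and SPRR2E are counted in the 18, the 11 and the 10. With at most 4 counts in an HSC3 library, they passed the filter through CAL27 cells alone and could only be found lower in HSC3 cells. Calprotectin genes and psoriasin were the most unequal of the tested members that had more than 4 counts in an HSC3 vehicle library. S100A9 averaged 53.8 ± 3.24 CPM in CAL27 and 1.82 ± 0.212 CPM in HSC3 cells (SD, n = 3), a log2 difference of -4.89 ± 0.193, or 29.7-fold. S100A8 differed by -4.25 ± 0.416 and S100A7 by -5.69 ± 0.782. TCHH (-2.56), S100A4 (-2.51), S100A13 (-0.81), FLG (-0.81) and SPRR1B (-0.72) were lower in HSC3 cells as well. The FLG call was lost without CAL27 vehicle library 3 (adjusted p = 0.0572 by edgeR) and the SPRR1B call without CAL27 vehicle library 1 (0.0607).

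IVL had 100 to 163 counts in the CAL27 vehicle libraries and at most 2 in an HSC3 vehicle library (adjusted p = 1.09e-06 by edgeR). RPTN and SPRR2E were also lower (adjusted p = 0.0216 and 0.0150 by edgeR), with 4, 0 and 0 and with 0, 0 and 0 counts in HSC3 vehicle libraries. IVL, RPTN and SPRR2E were tested only because of their CAL27 counts. The RPTN call was lost without CAL27 vehicle 2 (0.0549) or 3 (0.0887) or HSC3 vehicle 2 (0.0663) or 3 (0.0631). S100A3 (1.92 ± 0.179) and S100A11 (1.81 ± 0.107) were the members most above CAL27 in HSC3 cells, followed by S100A6 (0.90), S100A10 (0.82), S100A14 (0.64), S100A2 (0.50) and S100A16 (0.32). With library totals in place of TMM factors the median of all genes in this comparison moved by -0.27, and S100A16 (0.05, adjusted p = 0.623) and S100A2 (0.23, adjusted p = 0.0521) were then not called by edgeR. Medium and cell line cannot be told apart in these values. Summed over the 15 S100A genes, the level was 582 to 599 CPM in CAL27 vehicle and 920 to 1004 CPM in HSC3 vehicle libraries, and 486 to 611 and 806 to 926 CPM with DOX.

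**Figure D4:**
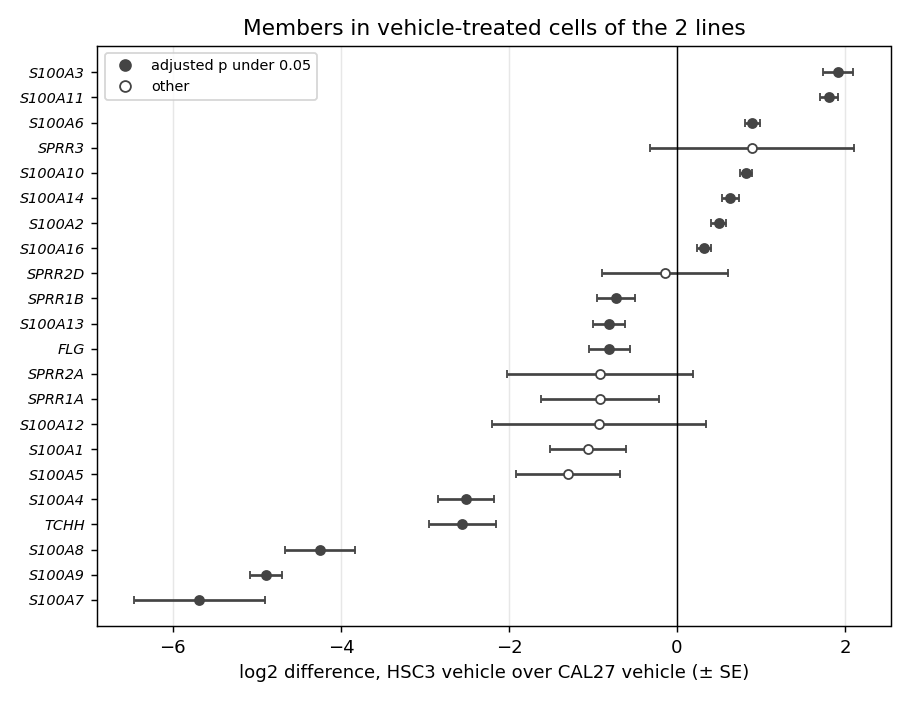
Log2 difference between vehicle-treated HSC3 and CAL27 cells (horizontal axis, ± SE) for 22 members, leaving out IVL, RPTN and SPRR2E, which had at most 4 counts in an HSC3 vehicle library. S100A3 and S100A11 are highest in HSC3 cells at 1.92 and 1.81, and S100A7, S100A9 and S100A8 lowest at -5.69, -4.89 and -4.25.

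Divided by exon length, S100A10 was the most abundant member in CAL27 vehicle libraries (137 CPM per kb), before S100A11 (108), S100A2 (94.4), S100A9 (93.9) and S100A6 (75.9). In HSC3 vehicle libraries the order was S100A11 (378 CPM per kb), S100A10 (242), S100A6 (142) and S100A2 (133). With DOX, S100A6 (121 and 178 CPM per kb) stood above S100A2 (66.9 and 71.0) in both lines. S100A2 and S100A9 in CAL27 vehicle libraries, and S100A6 and S100A2 in HSC3 vehicle libraries, are too close to rank against the spread of their libraries. Length was all annotated exon bases of a gene, so the order may differ where the transcripts made are shorter.

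The groups of genes that follow are read against the 44.5% of all genes called in CAL27 (21.8% lower and 22.6% higher) and the 28.4% in HSC3 cells (15.4% lower and 13% higher). Of 25 listed genes of the envelope or of the gene complex outside the symbol rule, 14 were tested in CAL27 cells (6 lower, 3 higher). In HSC3 cells 12 were tested (4 lower, 2 higher). TGM2, the widely expressed transglutaminase, rose by 1.91 ± 0.0545 on the log2 scale in CAL27 and 1.48 ± 0.0795 in HSC3 cells, and SCEL (sciellin) rose by 1.73 ± 0.0563 and 1.5 ± 0.0982. CSTA (cystatin A) fell by 0.75 and 0.56, and TGM1, the keratinocyte transglutaminase, was among the genes called lower in both lines. PPL (periplakin) was higher in CAL27 (0.18) and lower in HSC3 cells (-0.64). TGM2 was at 224 CPM in HSC3 vehicle libraries.

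Of 8 suprabasal keratins, 6 were tested in CAL27 cells, where KRT1 (-3.42), KRT4 (-3.04) and KRT13 (-3.37) fell and KRT80 rose (0.78), and 4 in HSC3 cells, where KRT80 fell (-0.53). Of 21 regulators of squamous differentiation, 13 fell and 1 rose of 20 tested in CAL27 cells (44.5% of all genes called), and 3 fell and 3 rose of 21 in HSC3 cells (28.4%). TP63 fell in both lines (-1.0 and -1.21), while EHF (-0.38 and 0.69) fell in CAL27 and rose in HSC3 cells. AHR fell by 1.0 in CAL27 and CEBPB by 0.64 in HSC3 cells.

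Among 12 binding partners and receptors of S100A proteins, all 12 tested in both lines, 4 fell and 5 rose in CAL27 (44.5% of all genes called) and 3 fell and 3 rose in HSC3 cells (28.4%). ANXA1 (0.65 and 0.85) and ANXA2 (0.36 and 0.36) rose in both lines, while their partners S100A11 and S100A10 were not called higher with all libraries. BSG (basigin), a receptor of S100A9, fell by 0.23 and 0.37. MYH9, which binds S100A4, rose in CAL27 (0.31) and AHNAK, a partner of S100A10, in HSC3 cells (0.24). Of the 4 S100 genes elsewhere in the genome, 1 was tested in CAL27 and none in HSC3 cells, and none was called. Of 12 skin-barrier lipid genes, 5 fell and 4 rose of 10 tested in CAL27 cells (44.5% of all genes called), and 6 fell and 1 rose of 9 in HSC3 cells (28.4%). UGCG, which makes glucosylceramide, fell in both lines (-0.96 and -0.70), as did SPTLC1 (-0.23 and -0.45), and ALOXE3 rose in CAL27 (0.76) and fell in HSC3 cells (-0.42). All these values are log2 fold changes with an adjusted p under 0.05 by edgeR.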

How the data were processed

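RNA-seq was performed on 12 libraries, 3 from each of CAL27 and HSC3 cells with vehicle and with DOX. Per the labels and the study's methods, RNA was made into TruSeq Stranded mRNA libraries, and the submitters' processing notes name FastQC 0.11.9, STAR 2.7.9a, Subread 2.0.1 with featureCounts and GRCh38. The authors deposited whole-number counts per gene symbol, without normalization, in 1 table for each line. The gene annotation, strand setting and treatment of duplicated and multiply mapped reads are not given in the sources used here. The members and the gene lists were chosen with earlier results of these data known.

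Each line was fitted alone in R 4.3.3 with the quasi-likelihood test of edgeR 4.0.16 (glmQLFit, robust, two-sided) after TMM scaling and filterByExpr (minimum count 10, minimum total 15), with Benjamini-Hochberg adjustment over the 19239 genes tested in CAL27 and 18021 in HSC3 cells. The interaction and the comparison of vehicle-treated lines came from 1 fit of all 12 libraries (20694 genes). SE is the log2 fold change divided by the square root of F. Where no library of a group exceeded 3 counts, no fold change against it is printed. The counts that 1 molecule gave were estimated from the share of zeros among genes expected to have 8 to 16 counts. The scripts were tested on simulated counts.

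Replicates were compared in all pairs of a group. The chi-square per degree of freedom was 7.71 to 141, 0.441% to 1.37% of genes had equal counts, and each library was kept as 1 replicate. The CAL27 DOX columns carry numbers that no sample label has, so they were used as a group. In HSC3 cells the correlations of same-numbered libraries' deviations were -0.2, 0.348 and -0.345, so the numbers were not taken to pair them.

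Named members are those tested in at least 1 line, with values in each library where a member was called and either changed over 2-fold or reached a mean of 100 CPM in a group. Values in each library for S100A3, S100A4, S100A8, S100A10, S100A14, SPRR1A, SPRR2A, SPRR2D, IVL and RPTN, and the naming of TGM1, were added after they were seen. From each list the called genes with the highest CPM are named, up to 4 a line, and some of these are not reported here. The genes nearest to S100A8 and IVL in pattern are not given, because the 12 libraries form separate clusters by line. The AP-1 motif was searched in RefSeq promoters, and positions come from GENCODE v44. Alternatives were DESeq2's size factors or library totals, no filter, DESeq2 1.42.0, counts divided by counts per molecule, 1 fit over 12 libraries, the replicate block, a fold change above 2 and each library left out in turn. Fibroblast markers (summed 10.2 to 14.1 CPM in CAL27 and 4.20 to 9.34 CPM in HSC3 cells), endothelium markers (8.83 to 15.3 and 0.135 to 0.520 CPM) and melanocyte markers (1.72 to 2.07 and 2.07 to 2.79 CPM, with TYR at 0) were low beside the squamous markers.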

Additional observations from a re-analysis of the deposited data

Results flagged for a closer look

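The response to DOX differed between the lines by the interaction test of edgeR (adjusted p under 0.05) for 6 members. S100A9 fell in CAL27 cells and had higher values with DOX in HSC3 cells, where it was not called (adjusted p = 0.0709 by edgeR). The difference was 1.56 on the log2 scale. SPRR1B fell in HSC3 cells and overlapped between groups in CAL27 cells, with a difference of -1.35. S100A14 fell less (0.41) and S100A2 fell more (-0.41) in HSC3 than in CAL27 cells. The S100A14 difference was lost without any 1 of 10 libraries, the S100A2 difference without any 1 of 7 and the SPRR2A difference without any 1 of 11. SPRR2A (adjusted p = 0.0498) and SPRR2D (adjusted p = 0.00199) had counts in CAL27 cells and none in the HSC3 DOX libraries, so that no size is given. Groups of 3 libraries were too small for a test of single values that stand apart within a group.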

How the results depend on the processing

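Of 125 results for single genes under all alternatives, 1546 values kept their direction and their side of the threshold, 79 were no longer past it, 24 were newly past it and 19 changed sign. These results were chosen in part by their main outcome. They include called genes of the lists, only the called differences between vehicle-treated lines, and only the interactions with lower adjusted p-values. The tally is therefore not a measure of how stable the members alone were. Without each library in turn, 3 to 6 members fell and 2 to 4 rose in CAL27 cells, 2 to 4 fell and 2 rose in HSC3 cells, 3 to 6 responses differed between the lines and 16 to 19 members differed between the vehicle-treated lines. Fitting all 12 libraries together gave 3 members lower in CAL27 and 9 in HSC3 cells, where 25 members were tested, and IVL, S100A8, SPRR1A, SPRR2A and SPRR2D were added, with IVL, SPRR2A and SPRR2D at 0 counts with DOX. With a fold change above 2 as well, 1 member was lower and 0 higher in CAL27, 1 lower and 0 higher in HSC3, 4 differed in response and 10 between vehicle-treated lines. The 4 include SPRR2A and SPRR2D and the 10 include IVL, RPTN and SPRR2E, which passed the filter through their CAL27 counts. DESeq2 called 8 differences in response and library totals 4. The median member moved to -0.144 in CAL27 cells with counts divided by counts per molecule (-0.202 to 0.0497 without each library), and in HSC3 cells to -0.93 with no filter, -0.30 in the joint fit and -0.31 with the replicate block (-0.304 to -0.167 without each library). All medians outside the scalings and left-out libraries were chosen after seeing the data. The values that changed sign, none of which was called, are given as log2 fold changes without each library in turn. In CAL27 cells they were FLG (-0.13 to 0.12, above 0 without vehicle 3 and, at 0.06, DOX 5), S100A1 (-0.15 to 0.34, below 0 without DOX 6), S100A7 (-0.30 to 0.19, below 0 without DOX 4 and, at -0.14, vehicle 2), SPRR1B (-0.23 to 0.0013, above 0 without vehicle 1), SPRR2A (-0.38 to 0.41, below 0 without vehicle 2 and, at -0.21, DOX 4) and TCHH (-0.0076 to 0.26, below 0 without vehicle 1), and S100A7 was -0.0063 with library totals and -0.0325 with counts divided by counts per molecule. In HSC3 cells they were S100A10 (-0.0463 to 0.0856, below 0 without vehicle 1), S100A5 (-0.54 to 0.19, above 0 without vehicle 3), S100A7 (-0.65 to 0.81, above 0 without vehicle 1 and, at 0.49 and 0.50, DOX 1 and DOX 2) and SPRR3 (-1.32 to 0.50, above 0 without DOX 2 and, at 0.04 and 0.02, vehicle 1 and DOX 3). The cause was not tested. In HSC3 cells the replicate block gave 3 members lower and 2 higher, and S100A14 was not called with it (adjusted p = 0.0591 by edgeR). No paired analysis was possible in CAL27 cells because the DOX columns carry no replicate number of the labels. Few counts limit what can be said of the LCE genes and most SPRR genes. HSC3 DOX libraries had the highest counts per molecule (8.93 to 17.2), so a given count there stands for the fewest molecules.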
